A study of Arabidopsis thaliana with 6 samples.

Results

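*DFR* (AT5G42800), *BAN* (AT1G61720) and *UGT78D2* (AT5G17050) encode flavonoid enzymes and were followed on 6 Affymetrix ATH1 arrays, 3 of the suppressor line *bp er fil-10* and 3 of its parent line *bp er*. Each gene was taken by its locus and had 1 probe set assigned to it alone, which makes 3 of the 13286 genes named in this way. RNA came from inflorescences of 5-week-old plants with no bud past floral stage 13. Both lines carry mutations in *BREVIPEDICELLUS* (*bp*, allele *bp-2*) and *ERECTA* (*er*), and the suppressor line carries in addition *fil-10*, a recessive point mutation in the YABBY gene *FILAMENTOUS FLOWER* that came from chemical mutagenesis of *bp er* and was backcrossed to it. No array used here held wild-type RNA, so *fil-10* was compared only in the *bp er* background. Each value is a MAS signal, the linear hybridization intensity of a probe set, scaled by the authors to a target of 500 per array.

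The median signal over all probe sets of an array was 203 to 215 in *bp er fil-10* and 193 to 211 in *bp er*. A probe set was tested if 3 or more arrays gave it a signal of 100 or more, which left 14456, 7812 of them named with 1 gene. No probe set was named for *FIL*, *BP* or *ER*, nor for any of 9 floral organ identity genes, so neither the genotype nor the tissue of an array was checked against them. A log2 difference below is the *bp er fil-10* mean of log2 signals minus the *bp er* mean, with the standard error of limma's fit over all probe sets tested. A call is a Benjamini-Hochberg adjusted p under 0.05 over all of them, 2-sided. The model was also fitted with replicate number as a blocking factor, and that p is given where it changes a call.

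Flavonoids are made from phenylpropanoid precursors through chalcones and dihydroflavonols, where the pathway divides. Flavonol synthase leads to flavonols, which are stored as glycosides and are abundant in flowers. Dihydroflavonol reductase, the product of *DFR*, leads instead to leucoanthocyanidins, from which both anthocyanins and proanthocyanidins are formed. Anthocyanidin reductase, the product of *BAN*, then diverts anthocyanidins into proanthocyanidins, the tannins that colour the Arabidopsis seed coat. The glucosyltransferase UGT78D2 attaches glucose at the 3-position of flavonols and of anthocyanidins, and thus serves both sides of the division.

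*DFR* was lower in *bp er fil-10* and its genotypes did not overlap. In *bp er fil-10* its signal was 70.7 in replicate 1, 249 in replicate 2 and 76.0 in replicate 3, against 1107, 720.2 and 722 in *bp er*, in the same order. The highest suppressor array, replicate 2, thus lay below the lowest parent array. Means were 132 ± 101 in *bp er fil-10* and 849.5 ± 223 in *bp er* (SD, n = 3 arrays each), and the mean signal of *bp er fil-10* was 0.155 times that of *bp er*. Such a separation with all *bp er fil-10* arrays below occurred in 9.13% of all probe sets tested. In RNA of whole inflorescences, fewer cells of a type and less RNA per cell cannot be told apart.

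The log2 difference of *DFR* was −2.92 (SE 0.46, 95% confidence interval −3.96 to −1.87). It missed the threshold in the fit without a block (limma adjusted p = 0.0945) and passed with the replicate block (limma adjusted p = 0.00966). The block rests on pairing arrays by replicate number, for which the basis is narrow. Without the block 0.00692% of all probe sets tested were called lower, and with it 2.13%. By unadjusted p, *DFR* ranked 23 of 14456 without the block. In *bp er fil-10*, 2 of the 3 arrays gave a signal under 100, and with such signals raised to 100 the difference was −2.62 (SE 0.37). Leaving out *bp er fil-10* replicate 2, its highest array of that genotype, gave −3.504 and a call (limma adjusted p = 0.0117). That fit called 0.0484% of all probe sets tested lower. With any other single array left out *DFR* was not called (limma adjusted p = 0.0535 to 0.364).

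*BAN* had the same mean difference on the log2 scale as *DFR*, with much more spread. Its signal was 66.0, 232 and 7.6 in *bp er fil-10* and 646, 442 and 178 in *bp er*, replicates 1 to 3 in each. The *bp er fil-10* array of replicate 2 lay above the *bp er* array of replicate 3, so the genotypes overlapped on 1 pair of arrays. Within each same-numbered pair the *bp er fil-10* array was the lower one. The basis for pairing by number is narrow, and how many of all probe sets show this was not counted. Means were 102 ± 116 in *bp er fil-10* and 422 ± 235 in *bp er* (SD, n = 3 each), a ratio of 0.241.

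The log2 difference of *BAN* was −2.92 (SE 1.09, interval −5.42 to −0.43) and was not called without the block (limma adjusted p = 0.236). With the replicate block it was called (limma adjusted p = 0.0329), beside the 2.13% of probe sets called lower in that fit. Its size depended on the low signals. With signals under 100 raised to 100 it was −1.49 (SE 0.50). Without the *bp er fil-10* array of replicate 3, where the signal was 7.6, it was −1.58, and without *bp er fil-10* replicate 2 it was −4.05; neither was called (limma adjusted p = 0.213 and 0.361).

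*UGT78D2* showed no difference between the genotypes that could be told from the spread between arrays. Its signal was 232, 358 and 644 in *bp er fil-10* and 405, 215 and 537 in *bp er*, replicates 1 to 3 in each. In each genotype the replicate 3 array was the highest, and the genotypes overlapped widely. Means were 411 ± 211 in *bp er fil-10* and 386 ± 161 in *bp er* (SD, n = 3 each). The log2 difference was 0.06 (SE 0.42, limma adjusted p = 0.952), and its 95% confidence interval of −0.90 to 1.03 leaves room for a change of either sign by nearly 1 log2 unit. The sign turned to −0.014 when each array was centred on its median.

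**Figure D1:**
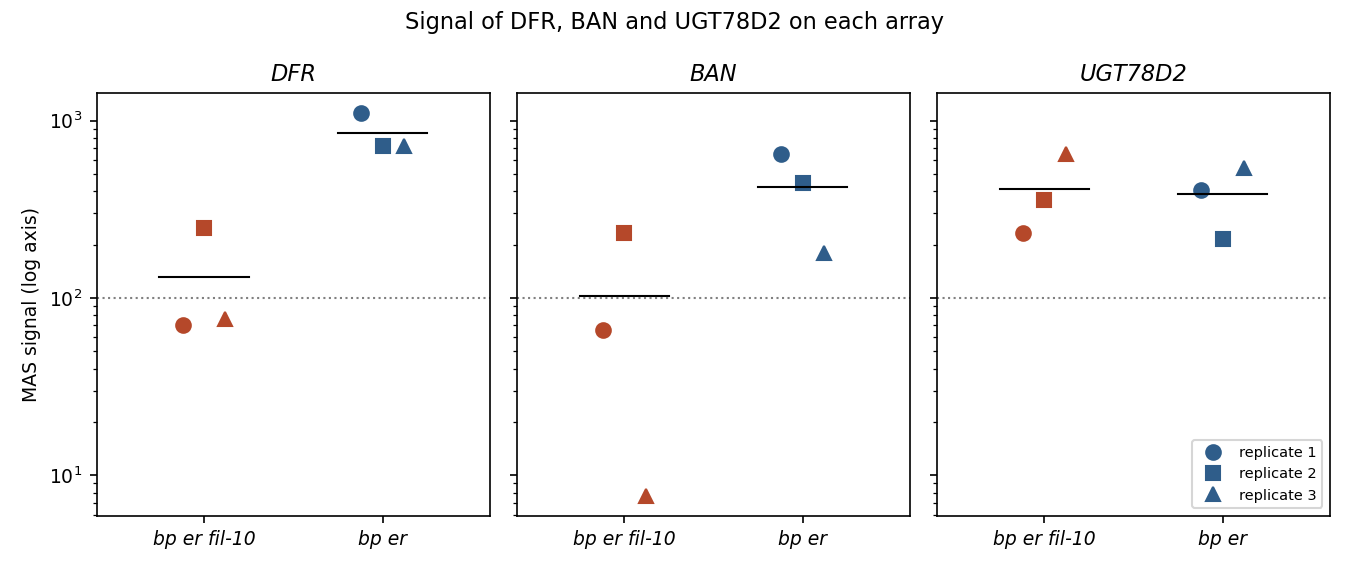
Signal of *DFR*, *BAN* and *UGT78D2* on each array, on a log axis, with *bp er fil-10* at the left of each panel and *bp er* at the right. Symbols give the replicate number, black bars the mean of the 3 signals, and the dotted line the signal of 100 used as a minimum. The *bp er fil-10* arrays of *DFR* (70.7 to 249) all lie below the *bp er* arrays (720.2 to 1107), those of *BAN* overlap on 1 pair of arrays, and those of *UGT78D2* overlap widely.

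All 3 genes were above the minimum signal on enough arrays to be tested, *DFR* and *BAN* on 4 arrays and *UGT78D2* on 6. *DFR* and *BAN* qualified through their 3 *bp er* arrays, and the fourth array at or above 100 was *bp er fil-10* replicate 2 for both. Against the *bp er* array of its own number, *DFR* on it differed by −1.53 on the log2 scale, compared with −3.97 for replicate 1 and −3.25 for replicate 3. For *BAN* the differences were −0.93 for replicate 2, −3.29 for replicate 1 and −4.55 for replicate 3. The smallest difference of both genes therefore fell on replicate 2. For *BAN* this order rests on the *bp er fil-10* replicate 3 signal of 7.6. With signals under 100 raised to 100, its smallest difference fell on replicate 3 instead, close to that of replicate 2. *UGT78D2* differed by −0.80, 0.73 and 0.26 for replicates 1, 2 and 3, and so had no common sign.

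Whether the steps differed from each other was asked from the log2 ratio of 2 genes within each array, in 3 pairs. The log2 difference of *DFR* minus that of *UGT78D2* was −2.98, and on every *bp er fil-10* array the ratio lay below that of every *bp er* array. An exact permutation test over the 6 arrays, 2-sided, gave p = 0.1, the smallest that 3 arrays against 3 allow, and 0.3 after adjustment over the 3 pairs. The log2 difference of *BAN* minus that of *UGT78D2* was −2.99, with overlapping arrays (exact permutation p = 0.2, adjusted 0.3). The log2 difference of *DFR* minus that of *BAN* was 0.0090 (exact permutation p = 1, adjusted 1). With signals under 100 raised to 100 it was −1.13 (exact permutation p = 0.1), so the near-equality of these genes depended on their lowest signals. That setting makes both genes equal on *bp er fil-10* replicates 1 and 3. With 3 arrays per genotype this permutation test cannot give a p under 0.05. Within same-numbered pairs, the differences of replicates 1, 2 and 3 were −3.17, −2.26 and −3.51 for *DFR* minus *UGT78D2* and −2.49, −1.66 and −4.82 for *BAN* minus *UGT78D2*. They were thus negative in 3 of 3 pairs for both, with an exact paired permutation p of 0.25, the smallest that 3 pairs allow. For *DFR* minus *UGT78D2* any pairing would give this, since its ratios did not overlap, so the pairs add nothing there. For *DFR* minus *BAN* the differences were −0.68, −0.60 and 1.31, with no common sign. The positive one rests on the *BAN* signal of 7.6 on *bp er fil-10* replicate 3.

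The rest of the pathway could be followed only where a probe set was named, since the annotation used here gave 1 gene in the gene table to 13436 of the 22746 probe sets that are not controls. The genes without a named probe set were not analysed here. Of 64 genes in 6 lists of flavonoid steps and regulators, 11 had a named probe set and 7 of these were tested, including *DFR*, *BAN* and *UGT78D2*. The 7 also include *TT15*, which was listed with the proanthocyanidin branch although it encodes a sterol glucosyltransferase. None of 8 phenylpropanoid entry genes and none of 22 regulators of the pathway, such as *TT8* and *PAP1*, had a named probe set. Limma called 0 of the 7 without the block, where *DFR* and *BAN* were among 1021 probe sets (7.06%) lower at an unadjusted p under 0.05. With the block it called *DFR* and *BAN*, beside 2.13% of all probe sets tested called lower. The log2 difference was negative for 5, among them *DFR* and *BAN*, and positive for 2, with a median of −0.56. Over all 14456 probe sets tested it was negative for 6306 and positive for 8150, with a median of 0.06.

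Above the division of the pathway, *CHIL*, whose product enhances chalcone formation, had signals of 523, 396 and 1692 in *bp er fil-10* and 1009, 891 and 1243 in *bp er*. The suppressor arrays of replicates 1 and 2 lay below every parent array and that of replicate 3 above. The log2 difference was −0.56 (SE 0.47, limma adjusted p = 0.578). In the flavonol branch, *UGT78D1*, which transfers rhamnose to the 3-position of flavonols, had 355, 452 and 1119 in *bp er fil-10* and 759, 704 and 893 in *bp er*. *UGT89C1* (AT1G06000), which adds rhamnose at the 7-position, had 238, 142 and 1324 in *bp er fil-10* and 631, 549 and 1065 in *bp er*. These genes thus repeated the order seen for *CHIL*, with replicates 1 and 2 of *bp er fil-10* lowest and replicate 3 highest of all arrays. Their log2 differences were −0.47 (SE 0.38, limma adjusted p = 0.558) for *UGT78D1* and −1.01 (SE 0.71, limma adjusted p = 0.497) for *UGT89C1*.

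Late in the anthocyanin branch, *UGT79B1* (AT5G54060), an anthocyanin xylosyltransferase gene, had signals of 5.3, 6.2 and 42.2 in *bp er fil-10* and 130, 27.0 and 112 in *bp er*. It reached 100 on 2 arrays, both of *bp er*, and was therefore not tested. The *bp er fil-10* array of replicate 3 lay above the *bp er* array of replicate 2. *UGT75C1*, an anthocyanin 5-glucosyltransferase gene, and *5MAT*, an anthocyanin malonyltransferase gene, stayed under 100 on every array, with 7.4 to 39.7 and 4.1 to 41.2 in *bp er fil-10* and 13.6 to 51.8 and 3.9 to 16.5 in *bp er*. At these signals no difference was detectable for either. *TT15*, a sterol glucosyltransferase gene required for a normally coloured seed coat, had 333 to 362 in *bp er fil-10* and 281 to 354 in *bp er*. Its log2 difference was 0.11 (SE 0.17, limma adjusted p = 0.770).

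**Figure D2:**
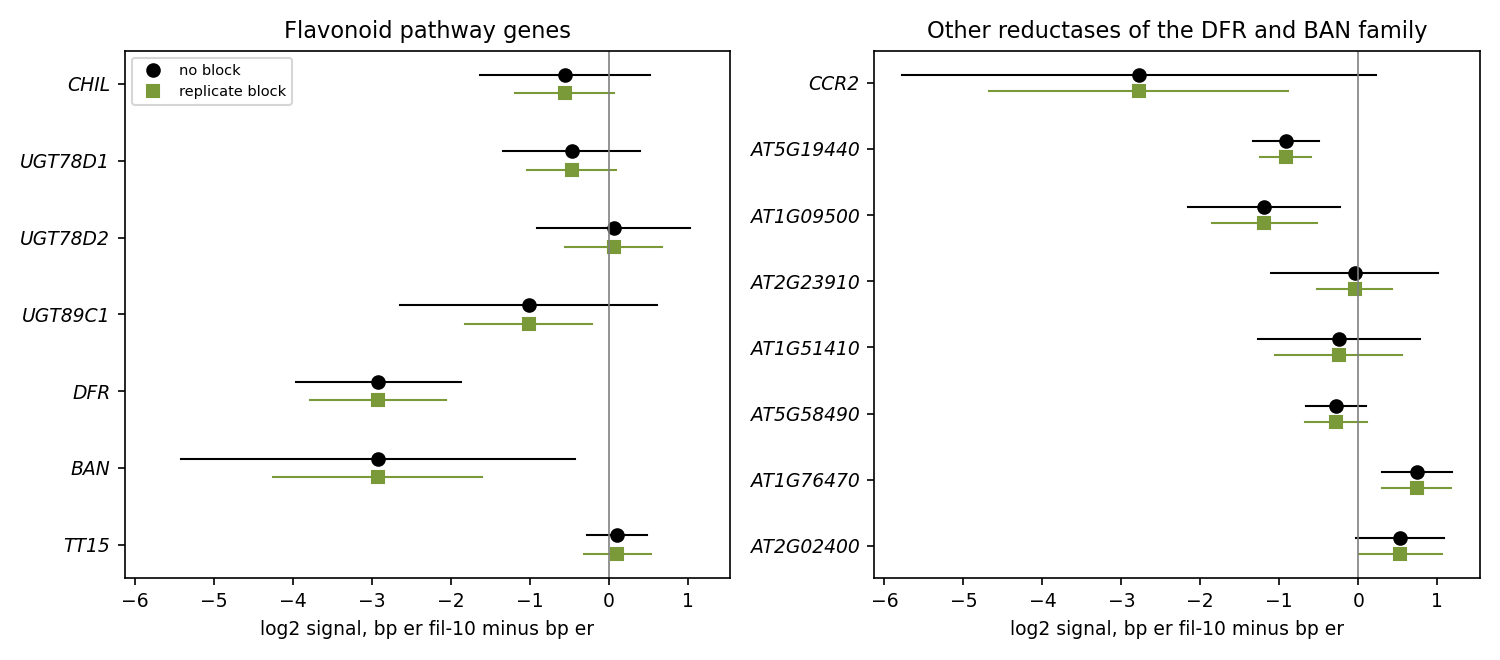
Log2 difference, *bp er fil-10* minus *bp er*, with its 95% confidence interval, for the 7 flavonoid genes tested (left) and 8 other reductases related to *DFR* and *BAN* (right). Circles are the fit without a block and squares the fit with the replicate block. *DFR* and *BAN* lie at −2.92, *UGT78D2* at 0.06, and the intervals of the other flavonoid genes without the block include 0.

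Several flavonoid genes stood highest on replicate 3 in both genotypes. On both of these arrays *UGT78D2*, *CHIL*, *UGT78D1* and *UGT89C1* were above the other arrays of their genotype, 4 of the 7 flavonoid genes tested, against 18.8% of all probe sets tested. *UGT78D2* was higher on replicate 3 than on the mean of replicates 1 and 2 by a log2 difference of 1.16 in *bp er fil-10* and 0.86 in *bp er*. For *UGT89C1* the excess was 2.85 in *bp er fil-10* and 0.86 in *bp er*, for *CHIL* 1.90 and 0.39, and for *UGT78D1* 1.48 and 0.29, in the same order. *BAN* was lowest on replicate 3 in both genotypes, as were 18.1% of probe sets tested, by −4.03 in *bp er fil-10* and −1.58 in *bp er*. The *bp er fil-10* value rests on the signal of 7.6 and was −0.61 with signals under 100 raised to 100, where replicates 1 and 3 have no order. The replicate 3 array of *DFR* was the middle one in each genotype, and differed from the mean of the others by −0.80 in *bp er fil-10* and −0.31 in *bp er*. The labels name no batch, so what replicate 3 shared was not tested.

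**Figure D3:**
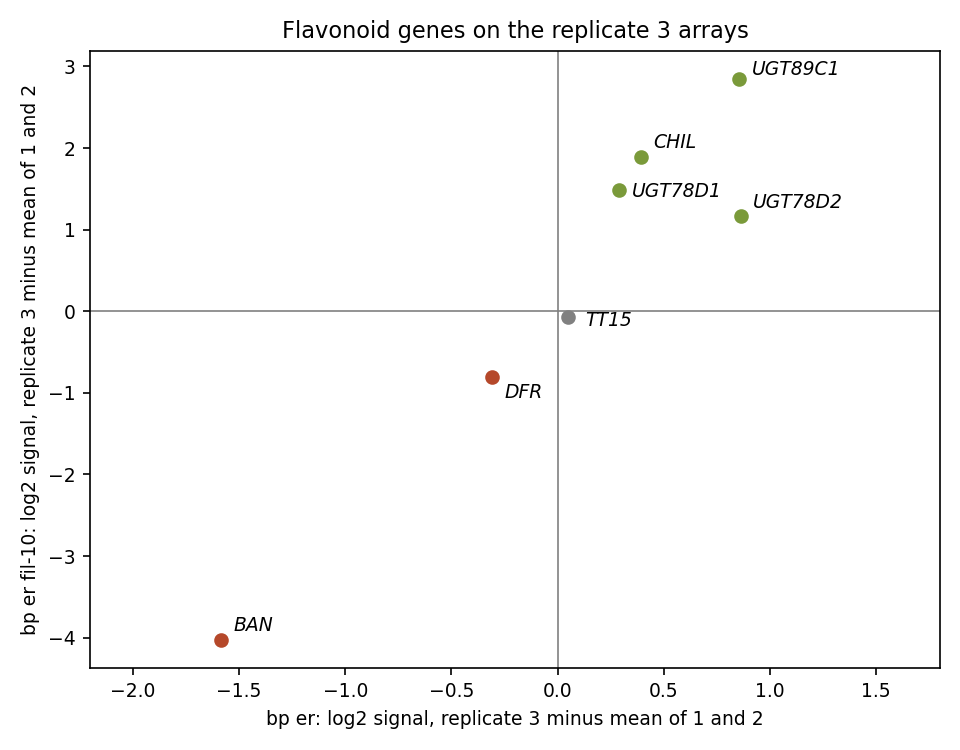
Log2 signal of the replicate 3 array minus the mean of replicates 1 and 2, in *bp er* (horizontal axis) and *bp er fil-10* (vertical axis), for the 7 flavonoid genes tested. *UGT78D2*, *CHIL*, *UGT78D1* and *UGT89C1* are positive in both genotypes, *DFR* and *BAN* negative in both, and *TT15* lies near 0.

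Without both replicate 3 arrays, which left 2 arrays per genotype and was tried after the data were seen, *DFR* differed by −2.75 (SE 0.44, limma adjusted p = 0.00421) and *BAN* by −2.11 (SE 0.45, limma adjusted p = 0.0152). *CHIL*, *UGT78D1* and *UGT89C1* were then called lower as well, with log2 differences of −1.06, −0.87 and −1.68 (limma adjusted p = 0.00618, 0.0151 and 0.00320). That made 5 of the 7 flavonoid genes tested, beside 4.81% of all probe sets called lower in this fit. For these 5, *bp er fil-10* replicates 1 and 2 lay below *bp er* replicates 1 and 2, so leaving out replicate 3 fixed the sign. The genes and lists were also chosen with earlier results of these data known. The count is therefore a description and no test of the pathway. *UGT78D2* stayed at −0.036 (SE 0.31, limma adjusted p = 0.959), and *TT15* at 0.15 (limma adjusted p = 0.706). When only *bp er fil-10* replicate 3 was left out, *UGT89C1* was at −1.96 and called (limma adjusted p = 0.0482), beside 0.567% of all probe sets called lower. *CHIL* at −1.19 and *UGT78D1* at −0.96 were not (limma adjusted p = 0.0529 and 0.0635), and *UGT78D2* was at −0.32 (limma adjusted p = 0.664).

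**Figure D4:**
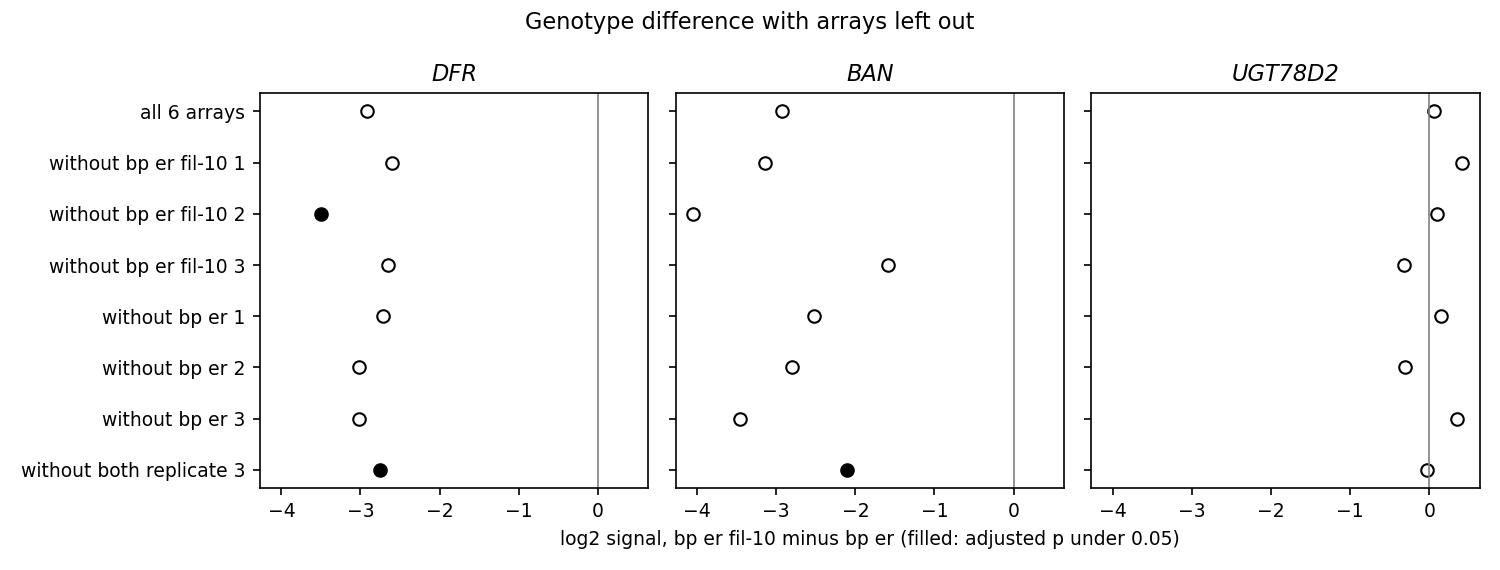
Log2 difference, *bp er fil-10* minus *bp er*, of *DFR*, *BAN* and *UGT78D2* with all 6 arrays, with each array left out and without both replicate 3 arrays. Filled points have a limma adjusted p under 0.05. *DFR* stays between −3.504 and −2.60 and *BAN* between −4.05 and −1.58, while *UGT78D2* takes either sign, from −0.32 to 0.41.

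*DFR* and *BAN* belong to a family of NADPH-dependent reductases that also holds the cinnamoyl-CoA reductases of lignin formation. Of 20 loci listed for this family, 13 had a named probe set and 10 were tested. Of the 10, limma called 0 without the block, where 4 were lower and 1 was higher at an unadjusted p under 0.05, beside 7.06% and 9.78% of all probe sets tested. With the block it called 3, all lower, beside 2.13% of all probe sets. These were *DFR*, *BAN* and AT5G19440. AT5G19440 had 1352, 1151 and 1732 in *bp er fil-10* and 2689, 2335 and 2896 in *bp er*. It showed no overlap, with all *bp er fil-10* arrays below, as for 9.13% of all probe sets tested. Its log2 difference was −0.92 (SE 0.18, limma adjusted p = 0.123, and 0.0164 with the replicate block).

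The cinnamoyl-CoA reductase gene *CCR2* had 4.1, 31.2 and 298 in *bp er fil-10* and 180, 175 and 393 in *bp er*. Replicate 3 was again the highest array of each genotype, and the genotypes overlapped through it. The log2 difference was −2.78 (SE 1.31, limma adjusted p = 0.326), and −0.68 (SE 0.47) with signals under 100 raised to 100. AT1G09500 had 126, 315 and 171 in *bp er fil-10* and 555, 595 and 245 in *bp er*, a log2 difference of −1.19 (SE 0.42, limma adjusted p = 0.223). Without both replicate 3 arrays it was called (limma adjusted p = 0.0174), as were *DFR*, *BAN* and AT5G19440, beside the 4.81% of probe sets called lower in that fit. AT1G76470 and AT2G02400 had positive log2 differences, 0.74 (SE 0.20, limma adjusted p = 0.152) and 0.53 (SE 0.24, limma adjusted p = 0.312), and their lowest suppressor array was above their highest parent array, as for 14.2% of all probe sets tested. The other 3 reductases tested, AT1G51410, AT2G23910 and AT5G58490, had log2 differences between −0.28 and −0.046. AT1G09510, AT1G66800 and AT4G27250 stayed under 100 on every array.

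In the UGT78D family all 4 genes had a named probe set, and *UGT78D3*, *UGT78D4* and *UGT78D2* are neighbouring genes. *UGT78D3*, a flavonol arabinosyltransferase gene, had 24.8, 44.6 and 39.0 in *bp er fil-10* and 38.7, 120 and 75.7 in *bp er*. It reached 100 on 1 array only and was not tested. *UGT78D4* had 24.6, 40.9 and 24.9 in *bp er fil-10* and 14.7, 7.0 and 22.0 in *bp er*, without overlap but all under 100, so it was not tested either. Across the family, *UGT78D1* and *UGT78D2* were therefore the only genes with signals that could be compared, and neither was called with or without the block.

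Among 7809 other named probe sets, the 3 whose log2 signal followed that of each gene most closely over the 6 arrays were taken, with Pearson's r as the measure and as a description only, since 6 arrays of 2 genotypes leave many probe sets with a high r. For *DFR* these were AT5G42050 (r = 0.995), *RTE1* (r = 0.992) and AT5G26680 (r = 0.991). Their log2 differences were much smaller than that of *DFR*, −0.66, −0.32 and −0.46. For *BAN* they were AT4G28085 (r = 0.980), AT5G39520 (r = 0.974) and AT1G10590 (r = 0.971). Of these AT5G39520 had the log2 difference closest to that of *BAN*, −2.004 (limma adjusted p = 0.401) or −1.15 with signals under 100 raised to 100, with signals of 133, 532 and 16.8 in *bp er fil-10* and 883, 558 and 156 in *bp er*. For *UGT78D2* they were AT2G47690 (r = 0.999), AT1G10180 (r = 0.984) and AT4G34630 (r = 0.983), with log2 differences of 0.020, −0.012 and 0.068. None of the 9 was called with or without the block.

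Because *BAN* is known from the inner seed coat and its precursor layers in the ovule, markers of other floral cells are given beside it. Of 8 ovule and carpel genes, only *INO*, a YABBY gene of the outer integument, had a named probe set, with 154, 223 and 170 in *bp er fil-10* and 238, 125 and 117 in *bp er*. Its genotypes overlapped (log2 difference 0.25, SE 0.33, limma adjusted p = 0.730). Of 9 tapetum and pollen wall genes, *A9* and *AMS* had one. Their summed signal was 6389 to 8286 in *bp er fil-10* and 4864 to 5699 in *bp er*, a sum that follows *A9* almost wholly. *A9* was above every *bp er* array on every *bp er fil-10* array, as were 14.2% of all probe sets tested (log2 difference 0.47, SE 0.15, limma adjusted p = 0.197). *AMS* overlapped, with 136, 136 and 99.1 in *bp er fil-10* and 132, 129 and 117 in *bp er* (log2 difference −0.041, SE 0.30, limma adjusted p = 0.956). No marker with a probe set was at 0, and none of 9 seed storage genes had one. The part of these cells in the differences of *DFR* and *BAN* was not tested.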

How the data were processed

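Inflorescence RNA, 3 samples per genotype labelled as biological replicates, was hybridised to ATH1 arrays. The authors made the deposited signal intensity of each probe set with GCOS (MAS) and scaled each array linearly to 500; no version is given in the sources used here, and detection calls were not used here. Signals were converted to log2 (1 signal of 0 raised to 0.1). Probe sets with at least 100 on at least 3 arrays were compared with limma 3.58.1 (lmFit, eBayes with an intensity trend, R 4.3.3), which was tested on simulated data. Python 3.11.15 and scipy 1.17.1 made the tables and exact permutation tests. The number of arrays limits the precision.

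Same-numbered arrays departed from their genotype means with correlations of 0.103, 0.221 and 0.380, each over the 0.1 above which numbers were taken to pair arrays. The basis is narrow: *bp er fil-10* replicate 1 correlated more with *bp er* replicate 2 (0.225). The crossed pair of *bp er fil-10* replicate 2 and *bp er* replicate 1 (0.183) was also above the same-numbered pair of replicate 1. For replicates 1 and 2 the correlations therefore did not favour pairing by number. Calls with the block and differences within same-numbered pairs rest on this pairing. The labels do not say what a number shares.

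Probe sets were named through the array annotation (14016 listed, 13513 with 1 gene and 503 with several) and the TAIR10.1 gene table. Some symbols (*UGT89C1*, *UGT75C1*, *A9*) were given by locus. Named were the 3 genes, the members of the lists with a probe set, and the 3 genes most like each. Genes and lists were chosen with earlier results of these data known. Alternatives changed the filter, floor, pseudocount, normalization, trend, block and arrays.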

Additional observations from a re-analysis of the deposited data

How the results depend on the processing

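*DFR* and *BAN* kept a negative difference under each of 15 alternatives. The filter, trend and block settings cannot move the difference itself. As the arrays of *DFR* did not overlap, leaving out an array could not turn its sign either. *DFR* was called with the replicate block (−2.92, adjusted p = 0.00966), without replicate 3 of both genotypes (−2.75) and without *bp er fil-10* replicate 2, and ranged over −3.504 to −2.60 with 1 array left out. *BAN* was called with the replicate block (−2.92, adjusted p = 0.0329) and without replicate 3 of both genotypes (−2.11), and ranged over −4.05 to −1.58 with 1 array left out. *UGT78D2* was called under none; its sign turned with median centring (−0.014), without replicate 3 of both genotypes (−0.036), without *bp er fil-10* replicate 3 (−0.32) and without *bp er* replicate 2 (−0.31), and the range with 1 array left out was −0.32 to 0.41. The difference between *DFR* and *BAN* (0.0090) turned with signals under 100 raised to 100 (−1.13), log2(signal + 32) (−0.55) and quantile normalization (−0.033), and ranged over −1.06 to 0.55 with 1 array left out. The differences of *DFR* and of *BAN* from *UGT78D2* kept their sign throughout. The block could not change either sign, nor could leaving out an array change that of *DFR*.

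Over all probe sets, limma called 0 higher and 1 lower (1414 and 1021 at an unadjusted p under 0.05). It called 1 and 17 with signals under 100 raised to 100, 0 and 6 with log2(signal + 32), 1 and 14 with median centring, 232 and 308 with the replicate block, and 690 and 696 without replicate 3 of both genotypes. With 1 array left out the counts ranged over 0 to 41 higher and 1 to 82 lower, both highest without *bp er fil-10* replicate 3. The causes were not tested. Signals under 100 limit what can be said of *BAN* and of the anthocyanin genes.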
